A study of Mus musculus with 16 samples.

Results

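The genes described here are those that mark maturing male germ cells, the spermatids, and the sperm made from them. They were taken by symbol: the protamines and transition proteins (Prm1 to Prm3, Tnp1 and Tnp2), the numbered Spata, Tssk, Odf, Cypt, Tekt and Spaca families, the Catsper genes, and Hils1, Akap3, Akap4, Smcp, Gapdhs, Ldhc, Pgk2, Acrv1, Zpbp, Crisp2, Ropn1, Fabp9 and H2al1e. These symbols name 69 of the 16593 genes and 93 of the 25697 probes on the array. The rule uses symbols alone. Prm2 was not analysed here.

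Spermatids rebuild a round cell into a sperm. They replace histones with transition proteins and then protamines so that DNA can be packed tightly, form the acrosome, which holds the enzymes for entering the egg, and build a tail with outer dense fibres, a fibrous sheath and a sheath of mitochondria. Transcription stops before this is finished, so many of these genes are transcribed early, held as messenger RNA and translated later. Several encode forms found in germ cells of proteins that other cells make from sister genes, such as the sperm lactate dehydrogenase Ldhc. Most of them are not known as genes of fat cells.

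Arrays read the RNA of eWAT (epididymal white adipose tissue) and of liver. This depot is white fat that lies against the epididymis, the duct beside the testis in which sperm mature and are stored. The mice were 24 weeks old, either labelled Fgf1 null, lacking the secreted growth factor gene Fgf1, or wild type, and had been fed a high-fat diet (HFD) or normal chow for 16 weeks. In each tissue the 4 groups were Fgf1 null on HFD, Fgf1 null on chow, wild type on HFD and wild type on chow, which makes 8 groups and 16 arrays. The 2 arrays of a group are technical replicates per the labels. A group is thus 1 RNA sample, and the labels do not say whether it came from 1 mouse or a pool. The spread between arrays is therefore technical, and no p-value is given for a pair of samples.

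Levels are normalized intensities on the log2 scale, from background-corrected and quantile-normalized arrays, with eWAT and liver normalized apart unless stated. A probe counts as detected on an array at a detection p under 0.05, and was tested in a tissue where both arrays of at least 1 sample detected it. A probe is called higher or lower between 2 samples where their means differ by at least 1 (2-fold), their arrays do not overlap and both arrays of the higher sample detect it. Errors given with ± are standard errors of a difference from the 2 arrays of each sample.

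Between 13570 and 15399 probes were detected on the eWAT arrays and between 10626 and 11650 on the liver arrays, and the 2 arrays of a sample correlated across probes at r = 0.988 to 0.995. The wild-type chow eWAT sample stood apart from all others in these genes, so results are given with it and without it. The label of the null-labelled chow eWAT sample was not borne out by Fgf1: its 2 probes averaged 9.97 and 7.23 there, against 9.30 and 6.07 in wild-type chow eWAT. On HFD they averaged 9.27 and 7.64 in null-labelled eWAT and 10.77 and 7.40 in wild-type eWAT. In liver they averaged 8.21 and 6.98 in null-labelled HFD, 9.34 and 8.27 in null-labelled chow, 9.64 and 7.24 in wild-type HFD and 10.29 and 8.16 in wild-type chow samples. Where these probes lie relative to the deleted part is not given in the sources used here. Directions by genotype below are directions between labelled samples.

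In eWAT, 78 of the 93 sperm and spermatid probes were detected on both wild-type chow arrays. The count was 30 in null-labelled HFD eWAT, 39 in null-labelled chow eWAT and 33 in wild-type HFD eWAT. On both wild-type chow arrays 83.9% of the sperm and spermatid probes were detected, against 56.3% of all probes. In the other eWAT samples the order was the reverse: 32.26% against 49.998% of all probes in null-labelled HFD eWAT, 41.9% against 52.9% in null-labelled chow eWAT and 35.5% against 49.8% in wild-type HFD eWAT. In liver 7, 8, 8 and 9 probes were detected in the null-labelled HFD, null-labelled chow, wild-type HFD and wild-type chow samples.

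Of the 93 probes, 79 passed the detection filter in eWAT and 14 did not. Among the 79, 39 passed only through the wild-type chow sample, and 40 passed through at least 1 other eWAT sample. On both wild-type chow arrays and on no other eWAT array, 27 probes of 26 genes were detected. Another 26 probes of 18 genes were detected on all 8 eWAT arrays. The 11 probes detected on no array of either tissue were 1 probe each of Crisp2, Catspere2, Catsperb, Odf2l, Spata1, Spata17, Spata2, Spata3, Spata5, Tssk1 and Tssk5. Of these genes Odf2l, Spata17, Spata2 and Spata3 had other probes, which were detected on at least 1 array.

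**Figure D1:**
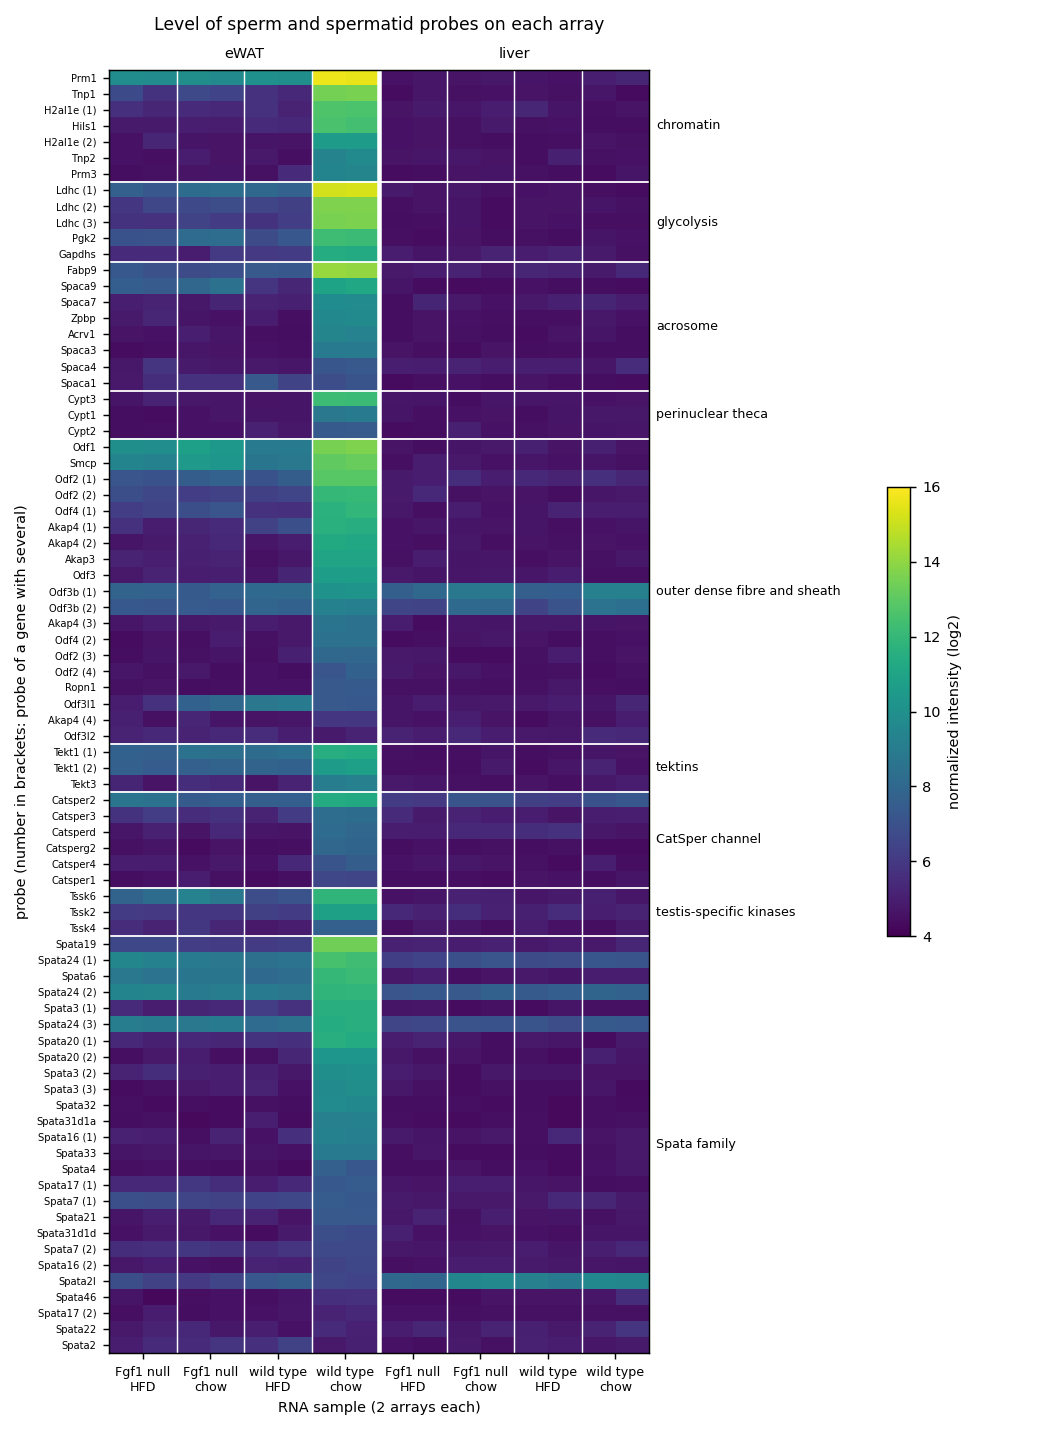
Each row is a probe tested in eWAT or liver, grouped by role and sorted by its wild-type chow eWAT level; each column is an array, with 2 arrays per RNA sample, and colour is the normalized intensity on the log2 scale, eWAT and liver normalized apart. In most rows the wild-type chow eWAT arrays are brighter than the other eWAT arrays, though some of these rows stay dim there too. The 7 probes detected on all 16 arrays are of Odf3b, Spata24, Catsper2 and Spata2l.

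The promoters of Prm1, Prm3, Tnp1 and Pgk2 are shown because these genes moved together, as described below, and because spermatids use the activator CREM, which binds the palindrome TGACGTCA and relatives of it. All 4 were picked among the windows that hold such a relative. Each sequence runs 5′ to 3′ on the gene's strand from 250 bases before to 50 bases after the RefSeq start (assembly GRCm38.p6), and capitals mark the relaxed palindrome TGANNTCA.
Prm1 promoter, chr16:10796774-10797073, minus strand: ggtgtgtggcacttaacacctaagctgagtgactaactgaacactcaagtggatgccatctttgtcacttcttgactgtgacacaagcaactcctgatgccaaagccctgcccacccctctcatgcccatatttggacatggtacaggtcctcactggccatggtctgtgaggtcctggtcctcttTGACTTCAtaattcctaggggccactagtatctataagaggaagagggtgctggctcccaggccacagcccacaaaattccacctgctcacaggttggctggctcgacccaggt
Prm3 promoter, chr16:10790865-10791164, minus strand: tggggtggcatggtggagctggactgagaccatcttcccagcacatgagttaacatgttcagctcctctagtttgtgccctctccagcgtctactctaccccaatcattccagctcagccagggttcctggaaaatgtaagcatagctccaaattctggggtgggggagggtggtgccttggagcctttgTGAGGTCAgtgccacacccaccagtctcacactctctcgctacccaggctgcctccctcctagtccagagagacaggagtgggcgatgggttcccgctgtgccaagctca
Tnp1 promoter, chr1:73015850-73016149, minus strand: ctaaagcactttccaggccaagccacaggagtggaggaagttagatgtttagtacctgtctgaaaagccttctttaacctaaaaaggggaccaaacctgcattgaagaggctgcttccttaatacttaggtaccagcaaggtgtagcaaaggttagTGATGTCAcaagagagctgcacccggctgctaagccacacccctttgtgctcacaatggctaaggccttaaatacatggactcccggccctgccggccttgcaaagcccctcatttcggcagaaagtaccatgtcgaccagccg
Pgk2 promoter, chr17:40208560-40208859, minus strand: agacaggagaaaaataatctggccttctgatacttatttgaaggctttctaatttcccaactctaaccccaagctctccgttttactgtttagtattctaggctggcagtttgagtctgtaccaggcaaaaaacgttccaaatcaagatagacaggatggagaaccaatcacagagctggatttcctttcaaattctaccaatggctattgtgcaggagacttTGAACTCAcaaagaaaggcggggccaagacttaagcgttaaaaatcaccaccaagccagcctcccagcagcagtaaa
The palindrome began 64 bases before the start in Prm1, 60 in Prm3, 94 in Tnp1 and 27 in Pgk2. RefSeq had such windows for 61 of the 69 genes, 77 windows in all. TGANNTCA occurred in 28 of these 77 windows (36.4%), against 14.1% of all 32851 windows of the same length. The full palindrome TGACGTCA, which is contained in TGANNTCA, occurred in 1 of the 77 (1.3%), against 1.79% of all windows. The letters TATAA occurred in 20.8% of the windows of these genes and 24.9% of all, and CCAAT in 44.2% and 37.4%. Every search covered both strands. TGANNTCA was picked out of 11 motifs after their counts were seen, so these shares are a description of the letters and no test of binding. In the RefSeq gene order Tnp2, Prm3, Prm2 and Prm1 follow each other directly on chromosome 16.

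The genes that pack sperm DNA were all lower in null-labelled chow eWAT than in wild-type chow eWAT, and all lower in wild-type HFD eWAT than in wild-type chow eWAT. Of their 7 probes, 4 passed the detection filter only through wild-type chow eWAT, so they could be called only lower here. The 3 that passed through another sample were lower in both comparisons, against 9.09% and 12.4% of all such probes. Prm1, the protamine that replaces transition proteins on DNA, was at 9.86 and 9.77 in null-labelled HFD eWAT, 9.92 and 9.72 in null-labelled chow eWAT, 10.03 and 9.99 in wild-type HFD eWAT and 15.70 and 15.60 in wild-type chow eWAT. Prm1 was thus well detected in every eWAT sample, and the samples other than wild-type chow lay between 9.72 and 10.03, all below wild-type chow. Its difference was -5.83 ± 0.11 between null-labelled and wild-type eWAT on chow and -5.64 between HFD and chow in wild-type eWAT.

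Tnp1, a transition protein that takes the place of histones, was at 6.70 and 5.77 in null-labelled HFD eWAT, 6.64 and 6.44 in null-labelled chow eWAT, 5.73 and 5.37 in wild-type HFD eWAT and 13.48 and 13.60 in wild-type chow eWAT. It fell by 7.002 ± 0.118 between null-labelled and wild-type eWAT on chow. Hils1, a linker histone of spermatids, was at 4.85 and 4.86 in null-labelled HFD eWAT, 5.01 and 4.93 in null-labelled chow eWAT, 5.47 and 5.34 in wild-type HFD eWAT and 12.54 and 12.41 in wild-type chow eWAT. No null-labelled eWAT array detected it, so it was at least 156-fold lower in null-labelled than in wild-type chow eWAT.

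Prm3, a small acidic protein encoded beside the protamines, averaged 4.66 in null-labelled chow eWAT and 9.44 in wild-type chow eWAT and was at least 19.0-fold lower. Tnp2, the second transition protein, was at 4.97 and 4.65 in null-labelled chow eWAT and at 9.35 and 9.74 in wild-type chow eWAT, at least 20.4-fold lower. Its wild-type HFD arrays, at 4.84 and 4.51, were not well above background either. H2al1e, a histone H2A variant of condensing spermatids, has 2 probes: one fell by 7.23 ± 0.07 and the other was at least 43.1-fold lower in null-labelled than in wild-type chow eWAT. H2A variants of this family are near-identical copies, so its probes may read more than 1 gene.

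**Figure D2:**
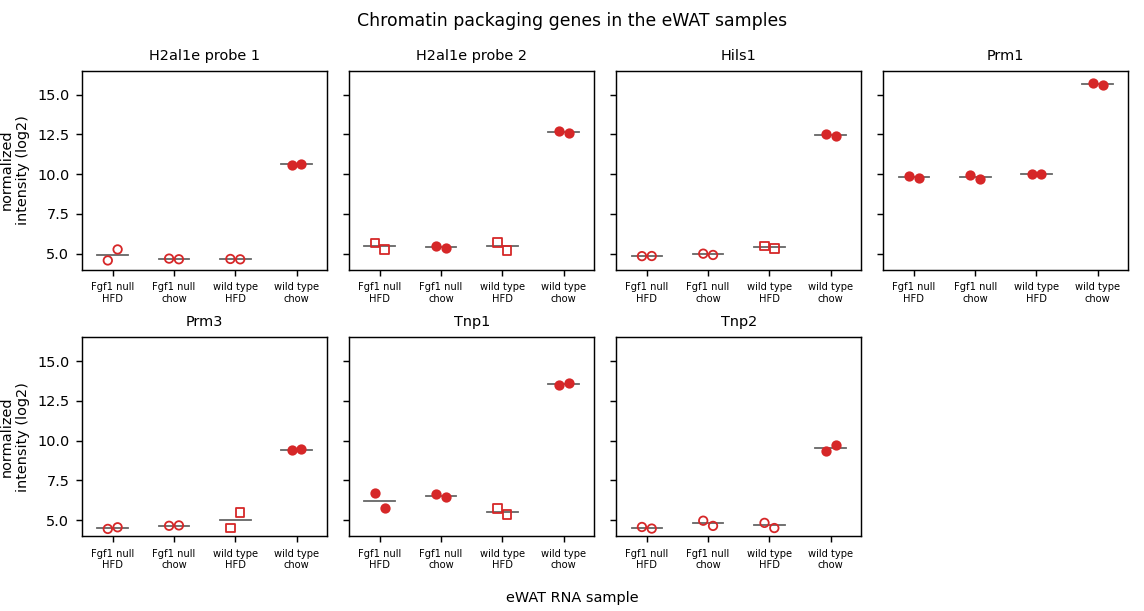
Points are the 2 arrays of each eWAT RNA sample for the 7 probes of DNA-packing genes, lines their mean, on a log2 axis of normalized intensity; filled circles mark samples detected on both arrays, open squares on 1 and open circles on none. Every wild-type chow point lies above every other point of its probe, and Prm1 alone lies near 10 in the other 3 samples.

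Enzymes of sperm energy supply showed the same order. Ldhc, the lactate dehydrogenase of male germ cells, has 3 probes, which fell by 7.31 ± 0.16, 6.97 ± 0.05 and 6.95 ± 0.08 between null-labelled and wild-type chow eWAT. The probe with the first of these values was at 5.74 and 5.72 in null-labelled HFD eWAT, 6.45 and 6.15 in null-labelled chow eWAT, 5.77 and 6.20 in wild-type HFD eWAT and 13.58 and 13.64 in wild-type chow eWAT. Gapdhs, the sperm form of glyceraldehyde-3-phosphate dehydrogenase, fell by 5.87 ± 0.53 in the same comparison, with 1 of 2 null-labelled chow arrays detecting it. Pgk2, the phosphoglycerate kinase that germ cells use in place of the X-linked Pgk1, fell by 4.003 ± 0.064, and its level in each sample is given below.

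All 8 acrosome probes tested were lower in null-labelled than in wild-type chow eWAT, with a median difference of -4.39. Such role medians take levels on undetected arrays as measured. Probes could pass the filter through wild-type chow eWAT alone, and that split is given below over all roles together. Fabp9, the testis lipid-binding protein, was at 7.29 and 6.96 in null-labelled HFD eWAT, 6.72 and 6.95 in null-labelled chow eWAT, 7.37 and 7.27 in wild-type HFD eWAT and 14.15 and 14.08 in wild-type chow eWAT. Zpbp, which binds the egg coat, was at least 22.1-fold lower and Acrv1, a protein of the acrosomal matrix, at least 18.3-fold lower in null-labelled than in wild-type chow eWAT. Spaca7, an acrosomal protein, was at 4.79 and 5.22 in null-labelled chow eWAT, where 1 of 2 arrays detected it, so its difference of -4.79 is near the limit of measurement there. Spaca1, which is needed to shape the acrosome in mice, behaved otherwise: it was at 4.83 and 5.57 in null-labelled HFD eWAT, 5.73 and 5.73 in null-labelled chow eWAT, 7.34 and 6.47 in wild-type HFD eWAT and 6.83 and 7.12 in wild-type chow eWAT. Its wild-type HFD and chow arrays overlapped.

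The Cypt genes, X-linked genes for cysteine-rich proteins of the perinuclear theca around the sperm nucleus, were below detection on every array of the other eWAT samples. Cypt3 was at 4.70 and 5.16 in null-labelled HFD eWAT, 4.76 and 4.72 in null-labelled chow eWAT, 4.64 and 4.67 in wild-type HFD eWAT and 12.23 and 12.17 in wild-type chow eWAT. That makes it at least 129-fold lower in null-labelled than in wild-type chow eWAT and at least 113-fold lower in wild-type HFD than in wild-type chow eWAT. Cypt1 was at least 12.9-fold and Cypt2 at least 4.74-fold lower in null-labelled than in wild-type chow eWAT.

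Of the 18 probes tested for outer dense fibre, fibrous sheath and mitochondrial sheath genes, 16 were lower and 0 higher in null-labelled than in wild-type chow eWAT, with a median of -3.58. Akap3 and Akap4 anchor protein kinase A in the fibrous sheath. Akap3, detected on 1 of 2 null-labelled chow arrays, fell by 5.88 ± 0.09, and Odf3, an outer dense fibre protein, was at least 46.6-fold lower. The 4 Akap4 probes disagreed in size: 2 fell by 6.18 ± 0.11 and, with 1 of 2 null-labelled chow arrays detecting it, 6.03 ± 0.15, 1 was at least 10.5-fold lower, and 1 that was dim everywhere differed by -0.90 ± 0.32 and was not called. Odf2, which also serves centrosomes of other cells, had 4 probes that were lower, with falls of 5.72 and 5.24 for the 2 detected in null-labelled chow eWAT and bounds of at least 7.03-fold and 4.78-fold for the 2 that were not.

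Tektins are filament proteins of the microtubule doublets in sperm tails and in cilia. The 2 Tekt1 probes fell by 2.996 ± 0.061 and 2.96 ± 0.08 and Tekt3 fell by 3.70 ± 0.13 between null-labelled and wild-type chow eWAT. CatSper genes encode the calcium channel of the sperm tail, and all 6 probes tested were lower, with Catsper2 at -3.86 ± 0.11, Catsperd, detected on 1 of 2 null-labelled chow arrays, at -3.08 ± 0.41, Catsperg2 at least 6.67-fold lower and Catsper4 at least 4.44-fold lower. The testis-specific kinases, which phosphorylate proteins of the maturing sperm, were lower in 3 of 3, with Tssk2 at -4.92 ± 0.02, Tssk6 at -2.77 ± 0.25 and Tssk4 at -2.05 ± 0.33.

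The Spata genes share a name given for expression in spermatogenesis rather than a structure, and were the least uniform. Of their 26 tested probes, 20 were lower and 0 higher in null-labelled than in wild-type chow eWAT. Spata19, a protein of sperm mitochondria, was at 6.58 and 6.62 in null-labelled HFD eWAT, 6.19 and 6.13 in null-labelled chow eWAT, 6.08 and 6.24 in wild-type HFD eWAT and 13.38 and 13.40 in wild-type chow eWAT. One Spata3 probe fell by 6.23 ± 0.05, and of the 2 Spata20 probes one fell by 6.14 ± 0.07 and the other was at least 34.8-fold lower. The 6 probes that were not called were both probes of Spata7, which is also a cilium gene of the retina, and 1 probe each of Spata17, Spata2, Spata22 and Spata2l.

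Across all roles, 71 of 79 tested probes, of 54 genes, were lower and 0 higher in null-labelled than in wild-type chow eWAT. Of all 15839 probes tested, 12.5% were lower and 13.3% higher by the same rule. The sperm and spermatid probes had a median difference of -3.76, or -3.58 with the probes that null-labelled arrays did not detect at their bound, against 0.09 for all probes tested. Because 39 of the 79 could pass the filter only by being high in wild-type chow eWAT, the 40 others are given apart. Of these 40, which passed through another sample, 35 (87.5%) were lower, against 9.09% of all 14554 such probes. The 8 probes tested but not called were 1 each of Akap4, Odf3l1, Spata17, Spata2, Spata22 and Spata2l and 2 of Spata7.

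Between HFD and chow in wild-type eWAT, 71 of 79 probes, of 53 genes, were lower and 2 higher, where 15.6% of all tested probes were lower and 16.2% higher. The median difference was -4.28, or -3.87 with undetected probes at their bound, against 0.12 for all. Of the 40 probes that passed through another sample, 34 (85%) were lower, against 12.4% of all 14554 such probes. The 2 higher probes were Odf3l1, a relative of an outer dense fibre gene, at 1.51, and 1 probe of Spata2, a regulator of inflammatory signalling in many tissues, at least 1.92-fold. Without wild-type HFD replicate 2, or without wild-type chow replicate 1, 1 probe was higher. This comparison and the genotype comparison on chow use the same wild-type chow sample, so the 2 counts of 71 are not independent of each other.

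**Figure D3:**
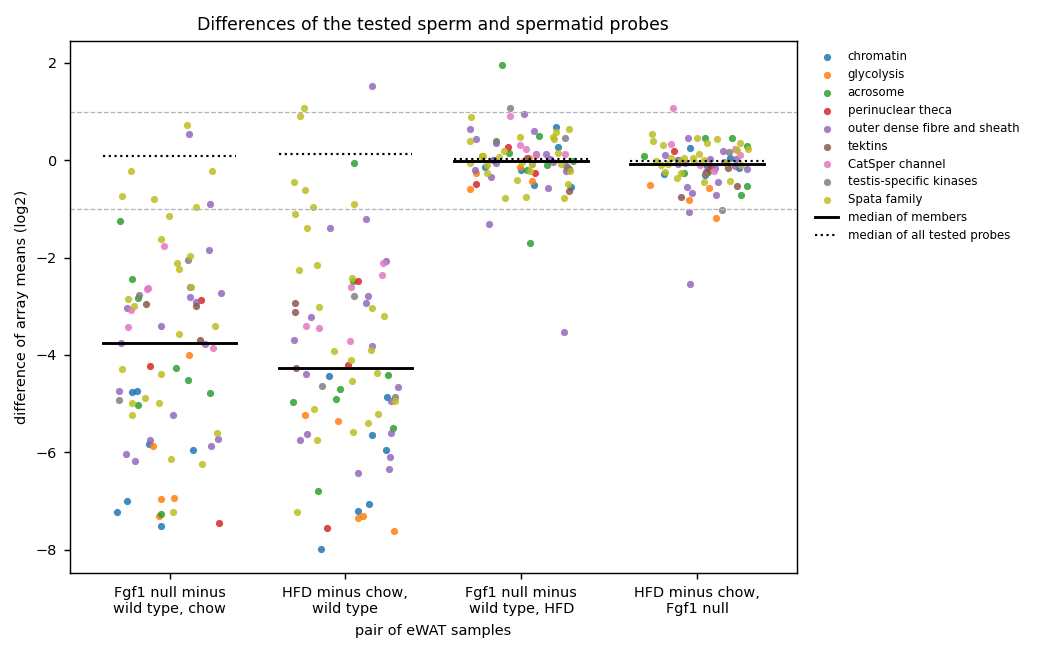
Each point is 1 of the 79 tested probes, coloured by role and spread sideways at random, and the vertical axis is the difference of sample means on the log2 scale for 4 pairs of eWAT samples; dashed lines mark 2-fold, solid lines the median of the points and dotted lines the median of all tested probes; in the pairs without wild-type chow 43 and 39 of the points are probes that neither sample detected on both arrays. The points lie far below 0 in the 2 pairs that hold the wild-type chow sample (medians -3.76 and -4.28) and around 0 in the 2 pairs that do not (-0.01 and -0.07).

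In the 2 pairs of eWAT samples without wild-type chow, many members could not be called at all, since a call needs both arrays of the higher sample to detect the probe. That left 36 of the 79 probes between null-labelled and wild-type HFD eWAT and 40 between HFD and chow in null-labelled eWAT. Between null-labelled and wild-type HFD eWAT, 2 of 79 probes were higher (2.53%, against 5.09% of all tested probes) and 3 were lower (3.8%, against 5.74%), with a median of -0.01. Between HFD and chow in null-labelled eWAT, 1 was higher (1.27%, against 4.13%) and 4 were lower (5.06%, against 5.56%), with a median of -0.07. Over the probes that could be called, 5.56% of 36 were higher and 8.33% lower in the first pair, against 5.86% and 6.61% of all 13743 such probes. In the second pair 2.5% of 40 were higher and 10% lower, against 4.63% and 6.23% of all 14139. Over these 36 and 40 probes the median difference was -0.13 in each pair, and the median size, in either direction, was 0.58 and 0.44. All 4 counts fell to 0 or 1 without background correction, and leaving out single arrays gave 1 to 4 higher and 3 to 4 lower in the first pair and 0 to 1 higher and 2 to 4 lower in the second. In the first pair 4 were higher without null-labelled HFD replicate 2 and 1 without wild-type HFD replicate 1, and in the second 0 were higher and 2 lower without null-labelled chow replicate 1.

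The genes behind these counts are named after their values were seen. Spaca9, a protein of acrosomes and of ciliary microtubules, was at 7.57 and 7.45 in null-labelled HFD eWAT, 7.98 and 8.49 in null-labelled chow eWAT, 5.81 and 5.30 in wild-type HFD eWAT and 10.95 and 11.18 in wild-type chow eWAT. Its arrays did not overlap between any of these samples, and on HFD it was 1.96 ± 0.27 higher in the null-labelled sample. Tssk6, a kinase required for chromatin condensation in mouse spermatids, was at 7.81 and 8.27 in null-labelled HFD eWAT, 9.32 and 8.81 in null-labelled chow eWAT, 6.84 and 7.08 in wild-type HFD eWAT and 11.83 and 11.84 in wild-type chow eWAT. It was 1.07 ± 0.26 higher in null-labelled than in wild-type HFD eWAT and fell by 1.03 ± 0.34 between HFD and chow in null-labelled eWAT.

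Smcp, a cysteine-rich protein of the capsule around sperm mitochondria, was at 9.42 and 9.27 in null-labelled HFD eWAT, 10.48 and 10.32 in null-labelled chow eWAT, 8.68 and 8.82 in wild-type HFD eWAT and 13.08 and 13.19 in wild-type chow eWAT. It fell by 1.06 ± 0.11 between HFD and chow in null-labelled eWAT. Pgk2 was at 7.02 and 7.09 in null-labelled HFD eWAT, 8.20 and 8.28 in null-labelled chow eWAT, 6.78 and 7.25 in wild-type HFD eWAT and 12.29 and 12.19 in wild-type chow eWAT, and fell by 1.19 ± 0.05 in that comparison. Its null-labelled and wild-type HFD arrays overlapped. Odf1, the main outer dense fibre protein, had the order of Smcp without a called difference there: 9.98 and 9.86 in null-labelled HFD eWAT, 10.77 and 10.40 in null-labelled chow eWAT, 9.001 and 8.937 in wild-type HFD eWAT and 13.55 and 13.70 in wild-type chow eWAT. Odf1, Smcp, Tssk6 and Spaca9 were each highest in wild-type chow, then in null-labelled chow, then in null-labelled HFD and lowest in wild-type HFD eWAT, with no array out of order.

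Catsper2 differed from these. It was at 8.60 and 8.48 in null-labelled HFD eWAT, 7.38 and 7.57 in null-labelled chow eWAT, 7.65 and 7.60 in wild-type HFD eWAT and 11.38 and 11.29 in wild-type chow eWAT, so HFD was 1.07 ± 0.11 above chow in null-labelled eWAT. Odf3l1 was the member with the widest range among samples other than wild-type chow: 4.93 and 5.73 in null-labelled HFD eWAT, 7.724 and 8.001 in null-labelled chow eWAT, 8.74 and 8.95 in wild-type HFD eWAT and 7.37 and 7.29 in wild-type chow eWAT. It fell by 3.52 ± 0.42 between null-labelled and wild-type HFD eWAT and fell by 2.54 ± 0.42 between HFD and chow in null-labelled eWAT, and it was not highest in wild-type chow. Spaca1, with the values given above, and the Akap4 probe ILMN_2773339 fell by 1.71 ± 0.57 and 1.31 ± 0.51 between null-labelled and wild-type HFD eWAT. Each of the 3 had 1 null-labelled HFD array below detection.

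**Figure D4:**
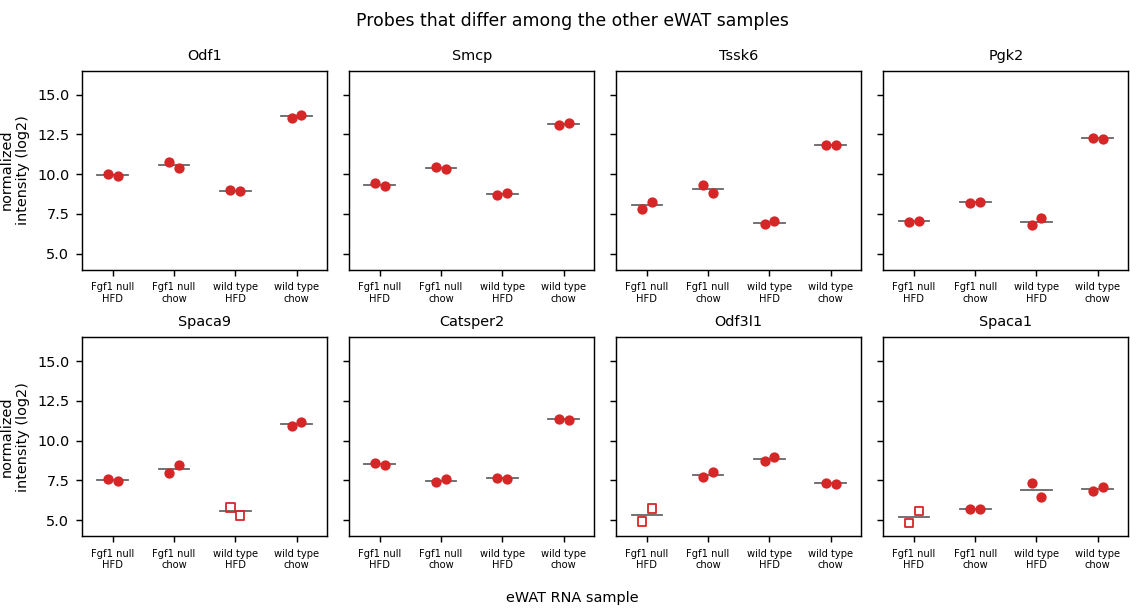
Points are the 2 arrays of each eWAT RNA sample and lines their mean, on a log2 axis of normalized intensity, for 8 genes chosen for differences among the samples other than wild-type chow; filled circles mark samples detected on both arrays and open squares on 1. Odf1, Smcp, Tssk6 and Spaca9 step down from null-labelled chow to null-labelled HFD to wild-type HFD, while Odf3l1 is highest in wild-type HFD.

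Among the 26 probes detected on all eWAT arrays, wild-type chow was the highest sample for 25, the exception being Spata2l, highest in wild-type HFD eWAT. The lowest sample was null-labelled HFD for 9, null-labelled chow for 8 and wild-type HFD for 9. How far wild-type chow stood above the next sample ranged widely for single probes, up to 7.31 for Ldhc and down to 0.51 for a Spata7 probe. Spata6, needed for the neck of mouse sperm, averaged 8.67 in null-labelled HFD eWAT, 8.68 in null-labelled chow eWAT, 8.19 in wild-type HFD eWAT and 12.09 in wild-type chow eWAT. Of the genes detected on all 16 arrays, the 3 Spata24 probes averaged 8.84 to 9.03 in null-labelled chow eWAT and 11.50 to 12.42 in wild-type chow eWAT, and the 2 Odf3b probes were at 7.37 and 7.59 in null-labelled chow eWAT and at 9.22 and 10.19 in wild-type chow eWAT.

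Other cell types of the male tract were read from marker lists in the same arrays. Other spermatid and sperm genes, a list of 63 probes with 0 of the members above, had 44 of 56 tested probes lower and 0 higher in null-labelled than in wild-type chow eWAT, with a median of -2.88. Regulators of spermatid transcription, among them Crem and Tdrd6, had 14 of 20 lower and 0 higher (median -1.50). Genes of spermatogonia and spermatocytes, the stages before spermatids, had 10 of 17 lower and 0 higher (median -1.39). Part of these probes, 21 of 56, 9 of 20 and 11 of 17, passed the filter only through wild-type chow eWAT, the sample in which they are high. Of those that passed through another sample, 27 of 35, 7 of 11 and 4 of 6 were lower, against 9.09% of all such probes. The summed intensity of the spermatogonia and spermatocyte list was 1276 to 1406 in null-labelled HFD eWAT, 1491 to 1544 in null-labelled chow eWAT, 1279 to 1333 in wild-type HFD eWAT and 9972 to 10703 in wild-type chow eWAT. Mns1, at 12.45 and 12.58 in wild-type chow eWAT, was the largest part of that last sum. Other markers of this list, Stra8, Sycp2, Sycp3, Dmc1, Hormad1, Mael and Tex15, were detected on no eWAT array.

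Some somatic testis markers were also higher in wild-type chow eWAT and others were not detected. Of the Leydig cell list 3 of 4 tested probes were lower in null-labelled than in wild-type chow eWAT. However, 3 of these 4 passed the filter only through wild-type chow eWAT, and the 1 that passed through another sample was lower. Insl3, a hormone of Leydig cells, was at 4.46 and 5.23 in null-labelled HFD eWAT, 4.45 and 4.67 in null-labelled chow eWAT, 4.80 and 4.45 in wild-type HFD eWAT and 11.70 and 11.39 in wild-type chow eWAT. Only the wild-type chow arrays detected it. Cyp17a1, an enzyme of androgen synthesis and the main part of the Leydig sum, was at 10.06 and 9.87 in null-labelled HFD eWAT, 10.98 and 10.96 in null-labelled chow eWAT, 9.62 and 9.77 in wild-type HFD eWAT and 12.21 and 12.22 in wild-type chow eWAT. The other 7 of the 11 Leydig probes, of Star, Hsd3b1, Hsd3b6, Nr5a1 (2 probes), Fdx1 and 1 of 2 for Hsd17b3, were detected on no eWAT array, and the list's median level was 4.65 in wild-type chow eWAT, against 4.69 in null-labelled HFD eWAT. Of the Sertoli cell list 9 of 13 were lower and 2 higher, while its markers Fshr, Amh and Gata4 were detected on no eWAT array. Of these 13 Sertoli probes, 3 passed only through wild-type chow eWAT. Among the 10 that passed through another sample 6 were lower, against 9.09% of all such probes. The summed Leydig list was 1200 to 1320 in null-labelled HFD eWAT, 2228 to 2247 in null-labelled chow eWAT, 1020 to 1110 in wild-type HFD eWAT and 7883 to 8451 in wild-type chow eWAT. Motile cilia genes, which share tail proteins with sperm, had 5 of 10 lower and 1 higher. Of the 9 that passed through another sample 5 were lower, against 9.09% of all such probes. Rsph1, at 14.19 and 14.35 in wild-type chow eWAT, was the largest part of this list's sum there. The 1 higher was Tppp3, at 9.64 and 9.49 in null-labelled chow and 7.78 and 8.13 in wild-type chow eWAT.

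Epididymal epithelium had the order of the Leydig sums, with wild-type HFD eWAT far below the rest. Its 31 probes summed to 85948 to 87489 in null-labelled HFD eWAT, 126705 to 132407 in null-labelled chow eWAT, 1359 to 1492 in wild-type HFD eWAT and 237557 to 243179 in wild-type chow eWAT. Of 21 tested probes, 7 were lower and 1 higher in null-labelled than in wild-type chow eWAT, but 15 were higher and 0 lower in null-labelled than in wild-type HFD eWAT, where Spaca9 and Tssk6 were the sperm and spermatid genes that were higher. Adipocyte genes summed to 250735 to 253321 in null-labelled HFD eWAT, 182895 to 202029 in null-labelled chow eWAT, 275313 to 275984 in wild-type HFD eWAT and 116425 to 118747 in wild-type chow eWAT, so wild-type chow eWAT was the lowest in fat cell markers and the highest in germ cell markers. Exocrine pancreas genes were near background on chow and summed to 471922 to 476597 in null-labelled HFD eWAT and 77734 to 80862 in wild-type HFD eWAT, and hepatocyte genes were highest in wild-type HFD eWAT at 165692 to 171806. In bulk RNA, fewer cells of a type and less RNA per cell cannot be told apart, and the part that these other tissues have in the differences of the sperm and spermatid genes was not tested.

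**Figure D5:**
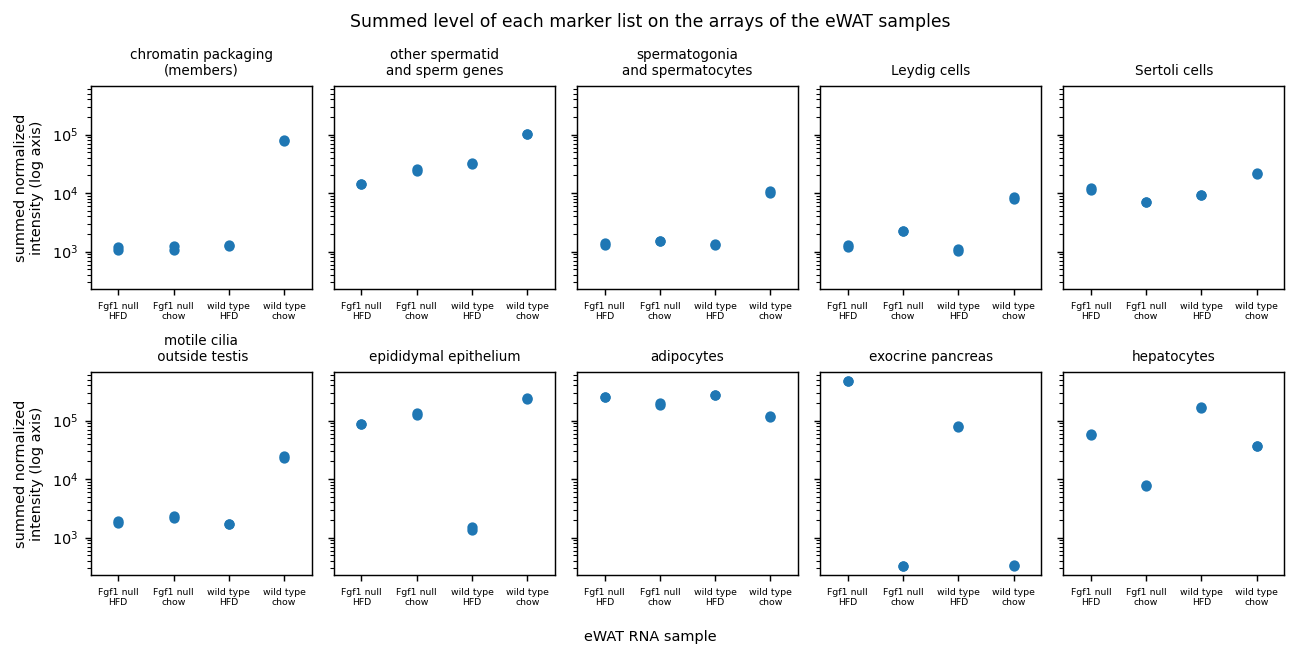
Each point is the summed normalized intensity of a marker list on 1 array, on a log axis, for the 4 eWAT RNA samples with 2 arrays each. The germ cell, Leydig, Sertoli and cilia lists are highest in wild-type chow eWAT, epididymal epithelium is lowest in wild-type HFD eWAT, and pancreas genes are high in the 2 HFD samples.

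In liver 10 of the 93 probes were tested, and 0 were called between null-labelled and wild-type liver on chow, where 1.61% of all 11580 tested probes were higher and 0.769% lower. On HFD, Spata2l, a relative of Spata2, was lower in null-labelled liver (1 of 10, against 1.7% of all lower and 2.96% higher). It was at 8.004 and 7.894 in null-labelled HFD liver, 9.52 and 9.66 in null-labelled chow liver, 9.20 and 8.90 in wild-type HFD liver and 9.61 and 9.51 in wild-type chow liver. The genotype difference on HFD was -1.10 ± 0.16, and it was not called without wild-type HFD replicate 1. The null-labelled HFD arrays lay below those of every other liver sample.

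Between HFD and chow, both Odf3b probes were lower in wild-type liver (2 of 10, against 2.39% of all lower and 3.08% higher), and in null-labelled liver 1 Odf3b probe, Catsper2 and Spata2l were lower (3 of 10, against 3.03% of all lower and 5.09% higher). The Odf3b probe ILMN_2759088 was at 7.65 and 8.03 in null-labelled HFD liver, 8.79 and 8.80 in null-labelled chow liver, 7.64 and 7.57 in wild-type HFD liver and 9.20 and 9.22 in wild-type chow liver. The HFD arrays of both genotypes lay below all chow arrays. Catsper2 was at 6.12 and 6.01 in null-labelled HFD liver, 7.10 and 7.09 in null-labelled chow liver, 6.28 and 6.20 in wild-type HFD liver and 7.04 and 7.27 in wild-type chow liver. The count in wild-type liver was 4 without wild-type chow replicate 1.

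A fit over the RNA samples themselves, with diet and genotype as additive terms and the 4 samples of a tissue, has 1 residual degree of freedom. With limma, 0 of 79 probes in eWAT and 0 of 10 in liver passed a Benjamini-Hochberg adjusted p under 0.05 for diet or genotype, and likewise 0% of all probes. Over all probes in eWAT the smallest limma adjusted p was 0.9975 for diet and 0.9998 for genotype. A difference held by 1 of 4 samples, such as wild-type chow eWAT, has no term in this model and enters its error. The 0 of 79 in eWAT is therefore no sign that these genes did not differ. At an unadjusted p under 0.05 the counts were 0 for diet and 1 for genotype in eWAT, and 4 for diet and 0 for genotype in liver. Of all probes tested, 1.77% passed that threshold for diet and 0.60% for genotype in eWAT, and 12.6% for diet and 3.23% for genotype in liver. The 4 were both Odf3b probes at -1.28 ± 0.25 and -1.65 ± 0.21, Catsper2 at -0.97 ± 0.21 and Spata2l at -1.07 ± 0.33 (limma SE). The smallest adjusted p among these genes was 0.191, for an Odf3b probe. In eWAT the 1 was Spaca1, at -1.48 ± 0.42 between null-labelled and wild-type samples, with a limma adjusted p of 1.00.

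With the arrays of both tissues normalized together, limma on the 8 RNA samples called 10 of 80 tested probes higher in eWAT than in liver and 1 lower. These are 12.5% and 1.25% of the 80, against 14.6% higher and 13.2% lower of all 16251 probes tested. Odf1 averaged 9.38 in null-labelled HFD, 10.10 in null-labelled chow, 8.35 in wild-type HFD and 13.51 in wild-type chow eWAT. In liver it averaged 4.57 in null-labelled HFD, 4.90 in null-labelled chow, 5.09 in wild-type HFD and 5.09 in wild-type chow samples. The difference was 5.43 ± 0.84 (adjusted p = 0.00326, limma). Smcp differed by 5.15 ± 0.84 (limma adjusted p = 0.0039), Prm1 by 5.94 ± 1.13 (limma adjusted p = 0.00727) and the 2 Tekt1 probes by 3.78 and 3.04. Every eWAT sample lay above every liver sample for each, and the exact permutation test of 4 against 4, two-sided, gave 0.0286, the smallest p it allows. Any probe whose samples do not overlap between tissues gets this value, whether limma called it or not. It is therefore no further support for genes picked by their limma call on the same values.

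The other genes called higher in eWAT were Spata6, Spaca1, Tssk6, Pgk2 and Spaca9, with differences of 1.23 to 3.88. Spata2l was the 1 gene called lower, at 6.08 ± 0.42 in eWAT and 9.56 ± 0.72 in liver (SD, n = 4 RNA samples each). Most of the genes with the largest differences between eWAT samples were not called here: Tnp1 averaged 7.58 ± 3.90 in eWAT and 4.61 ± 0.02 in liver, with a limma adjusted p of 0.168. Its eWAT samples, at 5.24 to 13.41, still all lay above its liver samples, at 4.59 to 4.64. The exact permutation test gave 0.0286 for Tnp1 too, so the missing call does not mean that the tissues overlapped. Without the wild-type chow eWAT sample, 17 probes were called higher in eWAT and 2 lower. Among the DNA-packing genes only Prm1 was called between tissues over all 8 RNA samples.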

How the data were processed

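Per the labels' protocols, biotin-labelled copies of total RNA were hybridised to 1-colour Illumina MouseRef-8 bead arrays; the submitters' processing notes name GenomeStudio, version not given in the sources used here. One deposited table gives each probe's linear intensity on the 16 arrays, not normalized, with its detection p-value. A second deposited table holds the authors' normalized intensity, by a method not given in the sources used here; it served as an alternative, floored at 16. Symbols came from GEO's platform annotation, which names no gene for 1719 probes. Promoter windows came from RefSeq (GRCm38.p6).

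Background was corrected with limma 3.58.1 in R 4.3.3, using detection p-values to place the negative controls, with 16 added; quantile normalization then ran within a tissue, or over both for the tissue comparison. This correction widens differences of dim probes. "At least" folds replace an undetected sample by the lowest detected signal on its arrays, or by its own if higher. Additive limma fits used array means, with Benjamini-Hochberg adjustment over all tested probes. They were tried on data simulated from the same additive models. No single sample stands apart in such data, so this was no check for samples like wild-type chow eWAT. Precision is limited by the number of arrays: the median SD between arrays of a sample was 0.161 in eWAT and 0.169 in liver.

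Members, roles, lists and tests were chosen with earlier results of these data known. Named by rule were the DNA-packing genes, up to 4 genes per other role with the largest called genotype difference on chow in eWAT, genes called against most of their role, up to 12 on all 16 arrays, up to 8 called in liver, up to 6 by adjusted p in the fits, and those never detected; genes behind counts of 5 or fewer, and further examples, were added after values were seen. Alternatives covered background, scaling, detection, fold, probe choice, left-out arrays and samples, and limma on single arrays without and with a replicate block. Array numbers did not pair samples: deviations of same-numbered arrays correlated at -0.0394 to 0.0509 in eWAT and -0.0730 to 0.0238 in liver.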

Additional observations from a re-analysis of the deposited data

Results flagged for a closer look

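In 4 genes, called differences of the same kind ran in opposite directions in 2 settings, with the arrays of the samples apart in each; none of these differences between settings was tested, since each group is 1 RNA sample. Catsper2, a subunit of the sperm calcium channel, differed between HFD and chow by 1.07 in null-labelled eWAT, by -3.71 in wild-type eWAT and by -1.03 in null-labelled liver. Odf3l1 differed between HFD and chow by -2.54 in null-labelled eWAT and by 1.51 in wild-type eWAT. Spaca9 differed between null-labelled and wild-type eWAT by 1.96 on HFD and by -2.83 on chow. Tssk6 differed between null-labelled and wild-type eWAT by 1.07 on HFD and by -2.77 on chow. The wild-type chow eWAT sample, which holds high spermatid and sperm markers, is part of 1 difference in each of these eWAT pairs. Some Leydig cell markers were high in it too, but only 4 of 11 Leydig probes were detected on both of its arrays.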

How the results depend on the processing

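With 1 RNA sample per group, every count describes these samples. A probe that no array of a sample detected has only a bound there, and 7 of the 71 lower probes on chow rest on 1 of 2 null-labelled arrays. Of 258 recomputed counts, 213 stayed within 1.5 times the value reported and 45 did not; the cause was not tested, and no direction of a named probe reversed. Among values of single probes 848 moved by no more than the spread between arrays or kept their call, 415 moved by more, under no background correction (155), median scaling (104) and the authors' values (156), and 21 lost their call. Leaving out 1 of the 2 arrays of a sample cannot move a pair difference by more than that spread. Such values are among the 848 by construction, so the 848 does not measure how stable sizes are under processing. The 71 lower probes between null-labelled and wild-type chow eWAT became 65 without background correction and 63 with the authors' normalized values, and the 71 lower on HFD than on chow in the wild type became 66 under each; leaving out single arrays gave 71 to 73 and 71 to 72. The lost calls were tissue calls of Spaca9, Pgk2, Tssk6 and Spaca1, among them all 4 without background correction.

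Between null-labelled and wild-type eWAT on chow, 1 probe was higher at a 1.5-fold minimum. Between null-labelled and wild-type HFD eWAT the 2 higher probes became 0 without background correction, 1 with median scaling, 0 with the authors' values, 10 at 1.5-fold, 0 at 4-fold and 1 to 4 without single arrays; the 3 lower became 1, 3, 1, 8, 1 and 3 to 4 in that order. For diet in wild-type eWAT the 2 higher became 1 without background correction, 1 with the authors' values, 1 at a detection p under 0.01, 0 at 4-fold and 1 to 3 without single arrays. For diet in null-labelled eWAT the 1 higher became 0 without background correction, with median scaling, with the authors' values and at 4-fold, and 0 to 1 without single arrays; the 4 lower became 1 without background correction, 1 with the authors' values, 9 at 1.5-fold, 1 at 4-fold and 2 to 4 without single arrays.

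In liver, 1 probe was called between genotypes on chow at 1.5-fold. On HFD the 1 called became 0 without background correction, 0 with the authors' values, 2 at 1.5-fold, 0 at 4-fold and 0 to 1 without single arrays. For diet the 2 called in wild-type liver became 5 at 1.5-fold, 0 at 4-fold, 1 with the brightest probe per gene and 2 to 4 without single arrays, and the 3 in null-labelled liver became 5 at 1.5-fold and 0 at 4-fold. The additive diet fit in liver called 0 to 1 without single arrays. Between tissues the 10 higher became 6 without background correction, 22 with tissues normalized apart and 7 to 17 without single RNA samples, and the 1 lower became 1 to 2.

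Median scaling moved the median of all probes to 0.26, against 0.09, between null-labelled and wild-type chow eWAT and to 0.29, against 0.12, for diet in wild-type eWAT. For diet in null-labelled eWAT it put 31.3% of all called probes higher, against 42.6% as reported. Another alternative used limma on single arrays in place of the pair rule, with the array number as a replicate block. In eWAT it gave 71 lower on chow and 2 higher and 3 lower between genotypes on HFD. Between diets it gave 71 lower in wild type and 1 higher and 4 lower in null-labelled mice. The same fit without the block gave the same counts. Both fits treat technical replicates as replicates, so they measure only the spread between arrays. Leaving the wild-type chow arrays out of the normalization, an alternative chosen after seeing the data, left 2 higher and 3 lower between genotypes on HFD and 1 higher and 4 lower between diets in null-labelled eWAT.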
